A study of Mus musculus with 17 samples.

Results

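The genes described here encode the 5 lysyl oxidases of the mouse (Lox, Loxl1, Loxl2, Loxl3 and Loxl4) and 5 proteins that are commonly followed in fibrosis, namely periostin (Postn), fibronectin (Fn1), tenascin-C (Tnc), smooth muscle α-actin (Acta2) and SPARC (Sparc). They were taken by symbol from a table of 54658 genes in 16 RNA-seq libraries, and all 10 were found once and passed the filter on low values. The set was selected on earlier results of these data, including the CPM values by which leptin-knockout implants differed from wildtype implants, so that difference is given below as a description without a test.

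Lysyl oxidases are copper-dependent enzymes that oxidise lysine residues of collagen and elastin, which lets the fibres cross-link and stiffen. In fat, fibroblast-like progenitor cells make most of the fibrillar matrix, and a dense pericellular collagen network is a known feature of fibrotic adipose tissue. Periostin, tenascin-C and SPARC are matricellular proteins that modulate how cells meet that matrix, fibronectin is a scaffold for collagen assembly, and smooth muscle α-actin marks both myofibroblasts and vascular smooth muscle.

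The series compared fat-like implants with fat that the mice had made themselves. Mouse embryonic fibroblasts (MEF) from leptin-knockout (KO) or wildtype (WT) pups were injected under the skin over the sternum of hosts of a type named LD, at 3 to 5 weeks of age. At 16 weeks the medial meniscus of the left knee was destabilized, which is a surgical model of osteoarthritis, and the mice were killed at 28 weeks. All implant libraries therefore come from operated LD hosts, and KO and WT refer to the donor cells. KO implants carry the codes MKM and MKF, and WT implants MWM and MWF, where the last letter marks groups described as male or female, although the design text also calls the hosts male. Endogenous visceral fat carries the codes EVM (with surgery), EVFN (without surgery) and EVFY, a code that is not spelled out, and endogenous subcutaneous fat the code ESM (male, with surgery). The genotype of the animals that gave the endogenous fat is not stated, nor how many pups supplied the MEF. Each code has 2 libraries, which are named by code and number.

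All 16 libraries carried adipocyte RNA, with summed CPM (reads of a gene scaled so that each library sums to 1000000) of 6 adipocyte markers between 7721 and 23021. The labels name the tissue as sensory ganglia, yet the 6 sensory neuron markers summed to 5.57 to 44.8 CPM, and Scn10a, Prph and Isl1 were at 0 in at least 1 library. Depth ranged from 16444965 to 25805502 reads, and the least-read of the 10 genes, Loxl4, still had 70 reads in its lowest library. The libraries labelled EVFN1 and MKM1 stood apart from their groups. Across 17871 genes EVFN1 correlated with MKF1 at r = 0.984 and with its own partner EVFN2 at r = 0.906, and MKM1 correlated with EVFY1 at r = 0.989 and with MKM2 at r = 0.890. Ddx3y, a Y-linked gene, was at 0 CPM in MKM1 and at 80.6 CPM in MKM2, and both MWM libraries had Xist, which is made from an inactive X chromosome, at 494 and 466 CPM together with Ddx3y at 13.1 and 17.3 CPM. The 4 mesothelial markers, which visceral fat carries, summed to 393 CPM in MKM1 and 1.68 CPM in EVFN1, against 1.35 to 21.1 CPM in the KO implants used for means and 145 to 416 CPM in visceral fat. EVFN1 and MKM1 are therefore shown singly and kept out of the group means, which leaves 3 KO implant, 4 WT implant, 5 visceral and 2 subcutaneous libraries, and the main results with all 16 are given beside the tests.

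Of the 10 genes, Acta2 and Postn varied most over these 14 libraries, with a highest value 24.3 times the lowest for Acta2 and 15.0 times for Postn. The others varied by 2.25 times (Loxl1) to 4.83 times (Tnc). The promoters of those 2 genes are shown for that reason, from RefSeq on GRCm38.p6, each running from 250 bases before the start site to 50 after it, 5′ to 3′ on the gene's own strand. Capitals mark the matches to the CArG element (CC, a core of 6 bases that are A or T with at most 1 exception, GG), which serum response factor binds in smooth muscle genes, and to the TATA-type sequence TATATAA, both searched on both strands.
Acta2, chr19:34255324-34255623, minus strand: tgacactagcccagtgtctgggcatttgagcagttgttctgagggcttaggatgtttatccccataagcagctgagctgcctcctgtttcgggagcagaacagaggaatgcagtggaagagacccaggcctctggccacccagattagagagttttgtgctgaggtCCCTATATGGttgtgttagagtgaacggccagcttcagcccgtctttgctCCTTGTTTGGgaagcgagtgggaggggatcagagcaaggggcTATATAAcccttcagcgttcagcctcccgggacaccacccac
Postn, chr3:54360857-54361156, plus strand: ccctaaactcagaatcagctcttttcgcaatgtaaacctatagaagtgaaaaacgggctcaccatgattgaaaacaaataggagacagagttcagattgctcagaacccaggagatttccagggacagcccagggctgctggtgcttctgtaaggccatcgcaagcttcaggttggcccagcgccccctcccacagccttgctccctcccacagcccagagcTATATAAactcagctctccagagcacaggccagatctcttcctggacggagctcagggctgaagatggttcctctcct
The Acta2 window held 2 CArG matches, with first bases at -84 and -34 from the start site of the RefSeq table (34255373), and TATATAA with its first base at 9. The GENCODE annotation puts the 5′ end of Acta2 at 34255590 instead, so these positions hold only for the RefSeq start site. The Postn window held TATATAA at -28 and no CArG match. Of 32851 mouse promoters of 300 bases in the same table, 9.98% held at least 1 CArG match, 0.822% held 2 or more and 3.24% held TATATAA. Entries were matched for 5 of the 10 genes.

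Among the lysyl oxidases, Lox, the founding enzyme of the family (chromosome 18, 52516067 to 52529867, minus strand of mm10), had 372 CPM in MKM2, 396 in MKF1 and 411 in MKF2. WT implants had 242 CPM in MWM1, 289 in MWM2, 132 in MWF1 and 110 in MWF2. Every KO library lay above every WT library, and both MWF libraries lay below both MWM libraries. Visceral fat ranged from 125 to 362 CPM with a median of 312, and the subcutaneous libraries had 392 and 209 CPM. Lox therefore averaged 393 ± 20.1 CPM in KO implants (SD, n = 3), against 193 ± 85.7 CPM in WT implants (SD, n = 4), a ratio of 2.03 and a log2 difference of 1.11 (SE 0.36). MKM1 had 358 CPM, just below the KO libraries, and EVFN1 had 333.

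Loxl2, which oxidises collagen IV of basement membranes (chromosome 14, 69609068 to 69695834, plus strand), had 62.9, 51.9 and 73.4 CPM in MKM2, MKF1 and MKF2. In WT implants it had 34.6, 45.1, 30.0 and 31.0 CPM in MWM1, MWM2, MWF1 and MWF2, so KO and WT libraries did not overlap. Visceral fat ranged from 36.1 to 80.4 CPM with a median of 49.4, and the subcutaneous libraries had 64.0 and 91.7 CPM, the second of which was the highest value of the 16. KO implants differed from WT implants by a log2 difference of 0.83 (SE 0.22), a ratio of means of 1.78.

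Loxl3 (chromosome 6, 83034173 to 83052562, plus strand), whose loss in mice causes cleft palate and spinal defects, had 21.8, 22.6 and 26.4 CPM in MKM2, MKF1 and MKF2. The 4 WT libraries had 10.4, 9.71, 13.5 and 13.0 CPM in MWM1, MWM2, MWF1 and MWF2, again without overlap, for a log2 difference of 0.97 (SE 0.24). Visceral fat had 11.5 to 18.9 CPM in 4 libraries and 40.3 CPM in EVFY2, and subcutaneous fat 16.4 and 19.3 CPM. Loxl3 shares 535 exonic bases, 11.6% of its exons, with Htra2 on the opposite strand, a gene that had 29.7 ± 2.98 CPM in KO implants and 16.2 ± 2.66 CPM in WT implants. The strand setting of the counting is not given, so over those bases the reads of the pair cannot be told apart and the level of Loxl3 is uncertain.

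Loxl1 and Loxl4 showed no such separation. Loxl1, which is needed for elastic fibre upkeep (chromosome 9, 58287738 to 58313186, minus strand), had 139 to 219 CPM in KO implants and 133 to 168 CPM in WT implants. Loxl4 (chromosome 19, 42593982 to 42612813, minus strand), the least abundant of the family, had 5.27 to 8.63 CPM in KO implants and 4.93 to 7.60 CPM in WT implants. Both subcutaneous libraries had more Loxl4, at 10.1 and 10.4 CPM, than any of the other 14 libraries.

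Per kilobase of exon, Lox and Loxl1 made up most of the family transcripts in every library. Lox accounted for 54.2 ± 4.70% of the summed level per kilobase in KO implants (SD, n = 3), 41.0 ± 9.97% in WT implants (n = 4), 42.7 ± 11.5% in visceral fat (n = 5) and 40.5 ± 18.1% in subcutaneous fat (n = 2). Loxl1 accounted for 33.7 ± 4.20% in KO implants, 47.7 ± 8.14% in WT implants, 45.1 ± 9.01% in visceral fat and 46.3 ± 15.7% in subcutaneous fat. The WT implants split by code, with Lox at 50.2 and 48.9% in the MWM libraries and at 33.9 and 31.0% in the MWF libraries. Within subcutaneous fat the order of the 2 enzymes turned over, with Lox at 53.3% in ESM1 and 27.7% in ESM2. The summed level was 153 ± 18.5 CPM per kilobase in KO implants, 95.1 ± 21.9 in WT implants, 128 ± 30.6 in visceral fat and 156 ± 2.78 in subcutaneous fat.

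**Figure D1:**
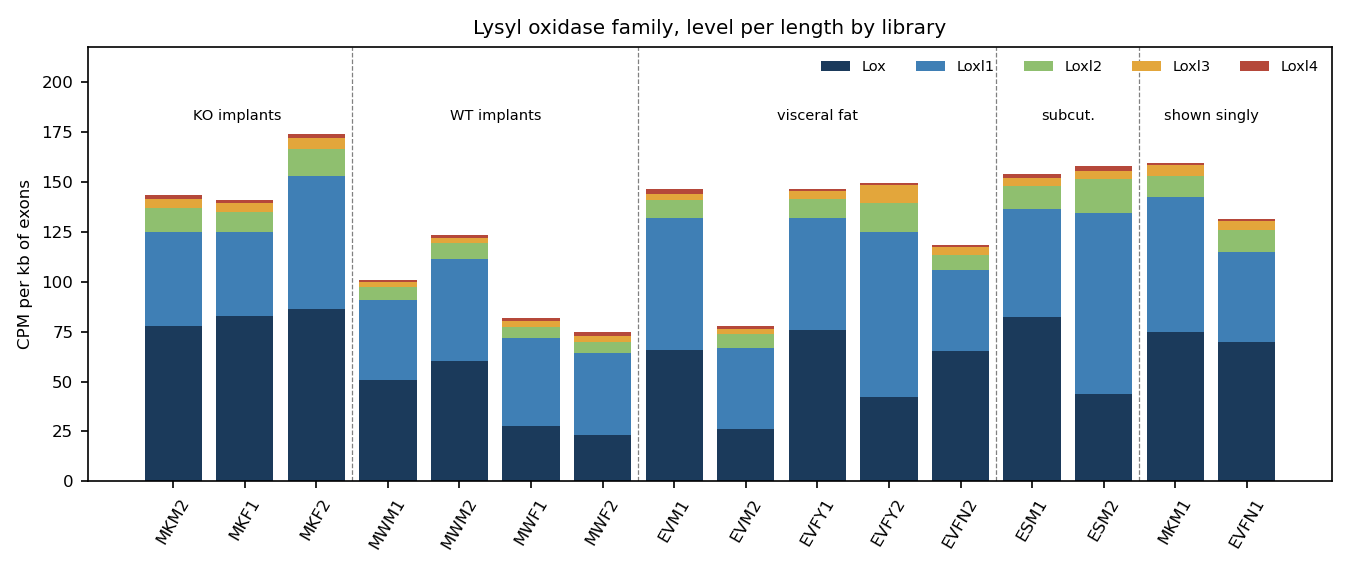
Stacked bars give the level of each lysyl oxidase in CPM per kilobase of exon (vertical axis, from 0) in each of the 16 libraries (horizontal axis), with MKM1 and EVFN1 shown singly at the right. Lox and Loxl1 form most of every bar, and the sum is 141 to 174 CPM per kilobase in KO implants, against 74.6 to 124 in WT implants.

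Periostin, which binds collagen I and takes part in activating lysyl oxidase through BMP1, showed the widest gap between the implants. Postn (chromosome 3, 54361109 to 54391037, plus strand) had 680, 824 and 802 CPM in MKM2, MKF1 and MKF2. In WT implants it had 189, 157, 156 and 203 CPM in MWM1, MWM2, MWF1 and MWF2. The KO and WT libraries did not overlap. Postn averaged 769 ± 77.6 CPM in KO implants (SD, n = 3) and 176 ± 23.8 CPM in WT implants (SD, n = 4), a ratio of 4.36 and a log2 difference of 2.08 (SE 0.49).

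Visceral fat spread more widely for Postn than either implant type, with 278 CPM in EVM1, 88.9 in EVM2, 387 in EVFY1, 1334 in EVFY2 and 375 in EVFN2. EVFY2 exceeded the KO implants and EVM2 lay below the WT implants. The subcutaneous libraries had 226 and 144 CPM, near the WT implants. MKM1 had 459 CPM, between the KO and WT libraries, and EVFN1 had 808 CPM, inside the range of the KO libraries.

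The other matrix proteins did not separate KO from WT implants. Fn1 (chromosome 1, 71585520 to 71653200, minus strand) had 991, 512 and 1410 CPM in MKM2, MKF1 and MKF2, and 810, 895, 907 and 618 CPM in MWM1, MWM2, MWF1 and MWF2. The lowest KO library was below all WT libraries and the highest above them. Hepatocytes are a major source of plasma fibronectin, and 4 liver markers summed to 38.6 to 6830 CPM in KO implants and 2025 to 9010 CPM in WT implants, against 8.71 to 62.1 CPM in visceral and 25.9 to 27.7 CPM in subcutaneous fat. Their part in the Fn1 values was not tested.

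Tnc (chromosome 4, 63959785 to 64047015, minus strand), which is induced in wounds and tendon, was low throughout, with 17.6 to 35.4 CPM in KO implants, 13.9 to 67.1 CPM in WT implants, 16.0 to 32.3 CPM in visceral fat and 18.2 to 22.5 CPM in subcutaneous fat. Sparc (chromosome 11, 55394500 to 55423183, minus strand), a collagen-binding glycoprotein, was the most abundant of the 10 per kilobase in every library except EVFY2, where Acta2 exceeded it. Its mean level per kilobase was 1392 ± 126 CPM in KO implants (SD, n = 3), 1172 ± 534 in WT implants (n = 4), 1099 ± 303 in visceral fat (n = 5) and 1352 ± 372 in subcutaneous fat (n = 2). In CPM, Sparc had 4727, 5473 and 5621 in MKM2, MKF1 and MKF2, and 5793, 6508, 2331 and 3124 in MWM1, MWM2, MWF1 and MWF2. The MWF libraries were thus below all KO libraries and the MWM libraries above them.

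**Figure D2:**
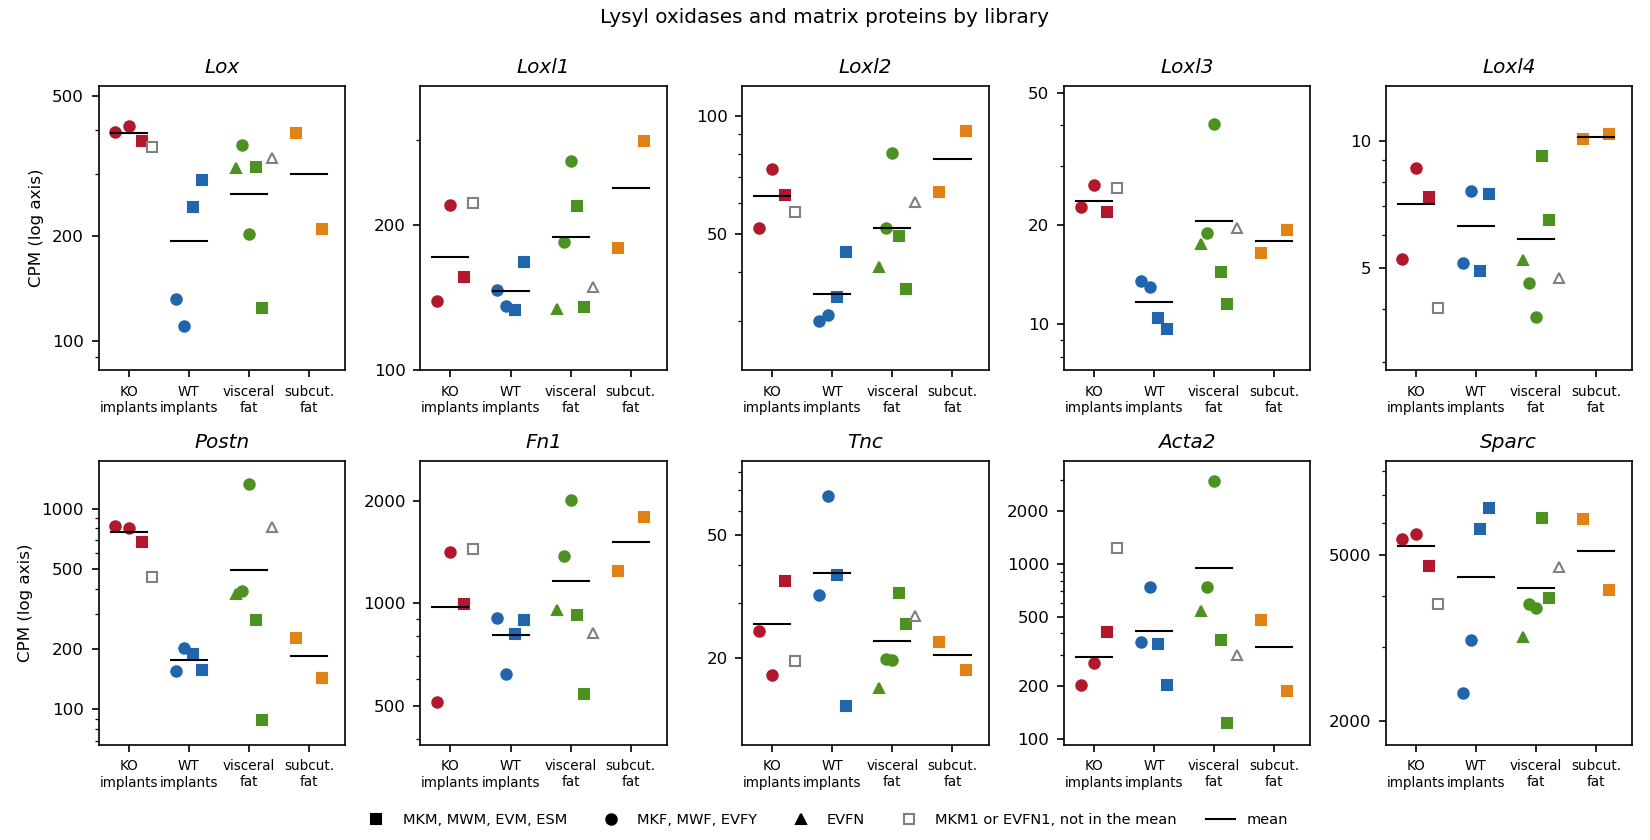
Each panel gives 1 gene, with CPM per library on a log axis, tissues along the horizontal axis, marker shape by group code and a line at the mean of the libraries used, while MKM1 and EVFN1 appear as open grey markers outside the mean. KO implants lie above WT implants without overlap for Lox, Loxl2, Loxl3 and Postn, and EVFY2 stands highest for Postn, Loxl3, Fn1 and Acta2.

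Counted over the 10 genes, 4 had every KO library above every WT library (Lox, Loxl2, Loxl3 and Postn) and 0 had every KO library below, where 14.3% of all 17871 genes tested lay above in this way, 12.6% below and 27.0% in either direction. As the genes were proposed with this contrast known, nothing is read from that count. The remaining log2 differences between KO and WT implants lay between -0.26 (Tnc and Acta2) and 0.33 (Sparc). The median over the 10 genes was 0.27, beside -0.06 over all genes. With the library labelled MKM1 among the KO libraries the log2 difference was 1.94 for Postn, 1.10 for Lox, 0.80 for Loxl2 and 1.03 for Loxl3. Tnc was then at -0.47, and Acta2 and Loxl4 turned sign, at 0.14 and -0.02. The markers of MKM1 go against its label, however (mesothelial markers 393 CPM, macrophage markers 1252 CPM, against 3626 to 4587 CPM in the other KO libraries).

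Markers of some cell types moved along with that contrast, and those of others mostly did not. Each of the 5 macrophage markers was higher in every KO library than in every WT library, with sums of 3626 to 4587 CPM in KO implants and 1058 to 1364 CPM in WT implants. Of the 5 fibroblast markers 3 behaved in this way, with sums of 12647 to 16224 CPM in KO implants and 5098 to 8019 CPM in WT implants. All 4 skeletal muscle markers were lower in every KO library, with sums of 54.2 to 2072 CPM in KO implants and 2515 to 35149 CPM in WT implants. All 4 Schwann cell markers (sums of 19.5 to 42.8 CPM in KO implants and 91.6 to 125 CPM in WT implants) and all 3 lung markers (7.98 to 20.1 CPM in KO implants and 109 to 459 CPM in WT implants) were likewise lower in every KO library. Other lists separated less. Of the 6 adipocyte markers 0 were higher and 1 lower in every KO library, and of the 4 endothelial markers 1 was higher and 0 lower. Of the 6 smooth muscle and pericyte markers 1 was higher and 1 lower. None of the markers in these lists was at 0 in all libraries. Their part in the differences of the 10 genes was not tested, and in bulk tissue fewer cells of a type and less RNA per cell cannot be told apart.

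Smooth muscle α-actin followed single libraries rather than tissues. Acta2 (chromosome 19, 34241090 to 34255590, minus strand) had 406, 202 and 271 CPM in MKM2, MKF1 and MKF2, and 349, 203, 355 and 738 CPM in MWM1, MWM2, MWF1 and MWF2. Visceral fat had 368 CPM in EVM1, 123 in EVM2, 735 in EVFY1, 2991 in EVFY2 and 538 in EVFN2, and subcutaneous fat 479 and 188 CPM. EVFY2 held 4.07 times the next visceral library, and MKM1, at 1230 CPM, was the second highest of all 16. All 4 tissues overlapped.

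In EVFY2 the smooth muscle genes were high together. Myh11, the smooth muscle myosin heavy chain, had 4672 CPM there and 143 to 882 CPM in the other 4 visceral libraries. Cnn1, the contractile regulator calponin, had 677 CPM there and 3.29 to 71.6 CPM in the others. Actg2, the enteric smooth muscle actin, had 1343 CPM there and 3.18 to 73.8 CPM in the others. The 6 smooth muscle and pericyte markers summed to 5925 CPM in EVFY2. Fn1 was also highest in EVFY2 (2015 CPM), as were Postn and Loxl3, and the 5 fibroblast markers summed to 13190 CPM there, against 4656 to 7714 CPM in the other 4 visceral libraries. The part of either list in these values was not tested.

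**Figure D3:**
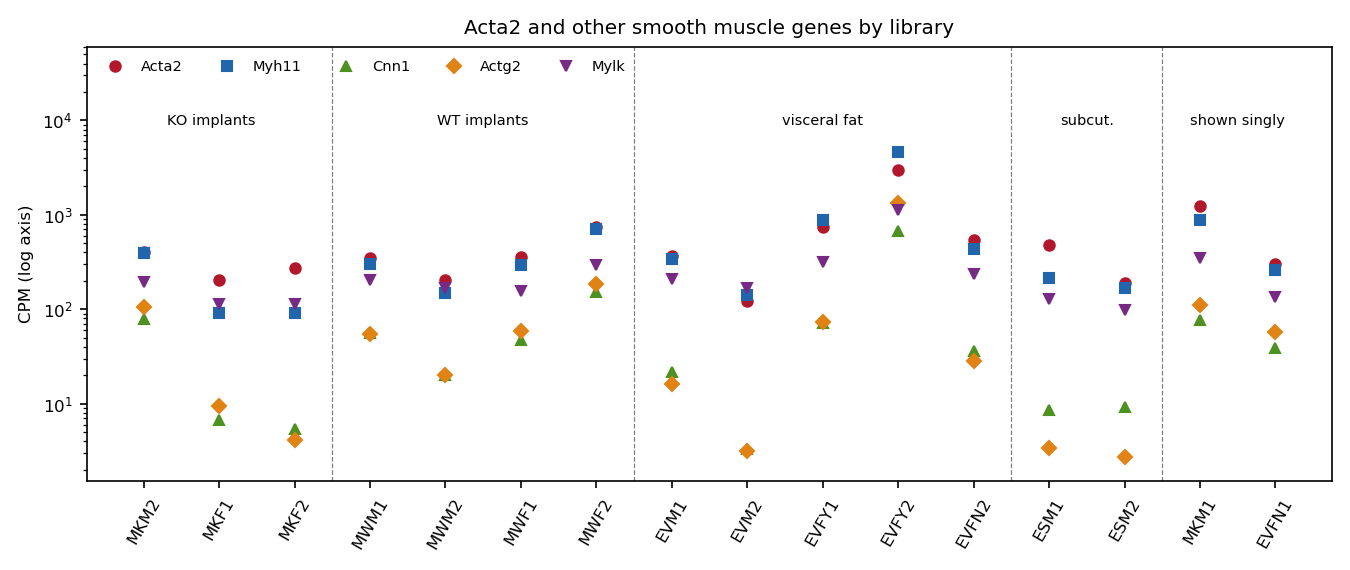
Points give CPM on a log axis for Acta2 and 4 other smooth muscle genes in each of the 16 libraries, in the order KO implants, WT implants, visceral fat, subcutaneous fat and the 2 libraries shown singly. All 5 genes peak in EVFY2, where Acta2 reaches 2991 CPM, and Cnn1 and Actg2 fall below 10 CPM in MKF1, MKF2, EVM2 and both subcutaneous libraries.

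Tests against endogenous fat used limma on log2(CPM + 0.5), with Benjamini-Hochberg adjustment over all 17871 genes, and a gene was called at an adjusted p under 0.05. The comparisons share samples: both implant types were set against the same visceral and the same subcutaneous libraries. The KO and WT libraries tested here are also those whose CPM values entered the choice of the 10 genes. P-values of these genes and medians over them are therefore not independent of that choice. In KO implants against visceral fat, 0 of the 10 genes were called, where 24.6% of all genes were (16.4% higher, 8.25% lower). At an unadjusted p under 0.05 there was 1 (Postn), and edgeR called 0. With all 16 libraries limma called 0 of 17964 genes in this comparison. The log2 difference of Postn was 1.09 (SE 0.48, 95% interval 0.01 to 2.17, limma adjusted p = 0.132), and 2.24 with EVM as the only visceral group (limma adjusted p = 0.0403). Lox differed by 0.60 (SE 0.35, adjusted p = 0.251, limma), although its lowest KO library (372 CPM) was above the highest visceral library (362 CPM), which the library labelled MKM1 (358 CPM) was not. The share of all genes with such a separation was not counted. The difference for Acta2 was -0.85 (SE 0.60, limma adjusted p = 0.341), and was 0.53 with EVM as the only visceral group. Without EVFY2, Postn and Loxl3 were called higher in KO implants, and Postn was also called without EVM1.

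In WT implants against visceral fat, limma again called 0 of the 10 genes, beside 22.4% of all genes (15.9% higher, 6.5% lower), with 3 lower at an unadjusted p under 0.05. Loxl3 was lower by a log2 difference of -0.65 (SE 0.21, limma adjusted p = 0.0527), and it passed with edgeR (adjusted p = 0.0297) and with all 16 libraries (limma adjusted p = 0.0462), where 1443 genes were called higher and 292 lower. With EVM as the only visceral group it was -0.15 (limma adjusted p = 0.742). Loxl3 was also called lower without EVFY1 (log2 difference -0.83) and without EVFY2 (-0.47). Loxl2 differed by -0.47 (SE 0.19, limma adjusted p = 0.112) and Postn by -0.99 (SE 0.42, limma adjusted p = 0.121). Postn was called lower without EVFY1 (limma adjusted p = 0.0458) and without EVM2 (limma adjusted p = 0.0496), and Tnc was called without MWM2. For Postn the sign depended on EVFY and EVFN, since the difference was 0.15 with EVM as the only visceral group. The median over the 10 genes was -0.43, beside 0.11 over all genes.

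Against subcutaneous fat, 1 of the 10 genes was called higher in KO implants, Postn, beside 18.3% of all genes (13.4% higher, 4.9% lower). Its log2 difference was 2.04 (SE 0.58, 95% interval 0.73 to 3.35, limma adjusted p = 0.0406), and all 3 KO libraries were above both subcutaneous ones. The share of all genes that lay above in this way was not counted. The call was lost with edgeR (adjusted p = 0.0503), without the filter on low genes (limma adjusted p = 0.0653) and with all 16 libraries (limma adjusted p = 0.158). It was also lost with the replicate number as a block (limma adjusted p = 0.0587), and without any 1 of MKF1, MKF2, the 4 WT libraries, ESM1 or ESM2. Under these settings the log2 difference itself stayed between 1.71 and 2.37, and with all 16 libraries only 21 genes of 17964 were called higher and 28 lower. Loxl2 differed by -0.30 between KO implants and subcutaneous fat (SE 0.26, limma adjusted p = 0.479).

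In WT implants the call fell on a different gene. Loxl2 was lower than in subcutaneous fat by a log2 difference of -1.13 (SE 0.24, 95% interval -1.69 to -0.58, limma adjusted p = 0.0227). It was the only one of the 10 called, beside 10.4% of all genes (8.57% higher, 1.82% lower), and edgeR called it too (adjusted p = 0.0233). With all 16 libraries it was called too (limma adjusted p = 0.0473), beside 395 genes higher and 49 lower. Every WT library lay below both subcutaneous libraries, and the call was lost without MWM1, MWF1, MWF2, ESM1 or ESM2. Both Loxl4 (-0.68, SE 0.27, limma adjusted p = 0.155) and Loxl3 (-0.60, SE 0.26, limma adjusted p = 0.184) had an unadjusted p under 0.05. Without EVFY1 or EVFY2, which are outside this comparison, Loxl3 was called lower at an unchanged log2 difference of -0.60. For Loxl1 (-0.67) and Fn1 (-0.90) limma gave adjusted p of 0.196 and 0.207. Like Loxl2, the genes Loxl1, Loxl3, Loxl4 and Fn1 were below both subcutaneous libraries in every WT library. The share of all genes that lay apart in this way was not counted, so nothing is read from this separation. Skeletal muscle markers summed to 94.2 CPM in ESM1 and 14458 CPM in ESM2, and their part in these differences was not tested.

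Between the endogenous depots, limma and edgeR called 0 of the 10 genes, beside 1.2% of all genes with limma (0.565% higher, 0.632% lower). At an unadjusted p under 0.05 there were 2, both lower in visceral fat, namely Loxl4 by a log2 difference of -0.82 (SE 0.27, limma adjusted p = 0.298) and Loxl2 by -0.66 (SE 0.24, limma adjusted p = 0.379). Every visceral library had less Loxl4, 3.84 to 9.21 CPM, than either subcutaneous library. How many of all genes separated the depots like this was not counted, so nothing is read from it. Postn differed by 0.95 (SE 0.53, limma adjusted p = 0.614), and by -0.20 with EVM as the only visceral group. With all 16 libraries 16 genes were called higher and 42 lower, and 0 of the 10. The visceral set mixed EVM (with surgery), EVFN (without surgery) and EVFY (not spelled out), while subcutaneous fat was ESM alone (male, with surgery). Depot and those differences cannot be told apart in this pooled comparison.

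**Figure D4:**
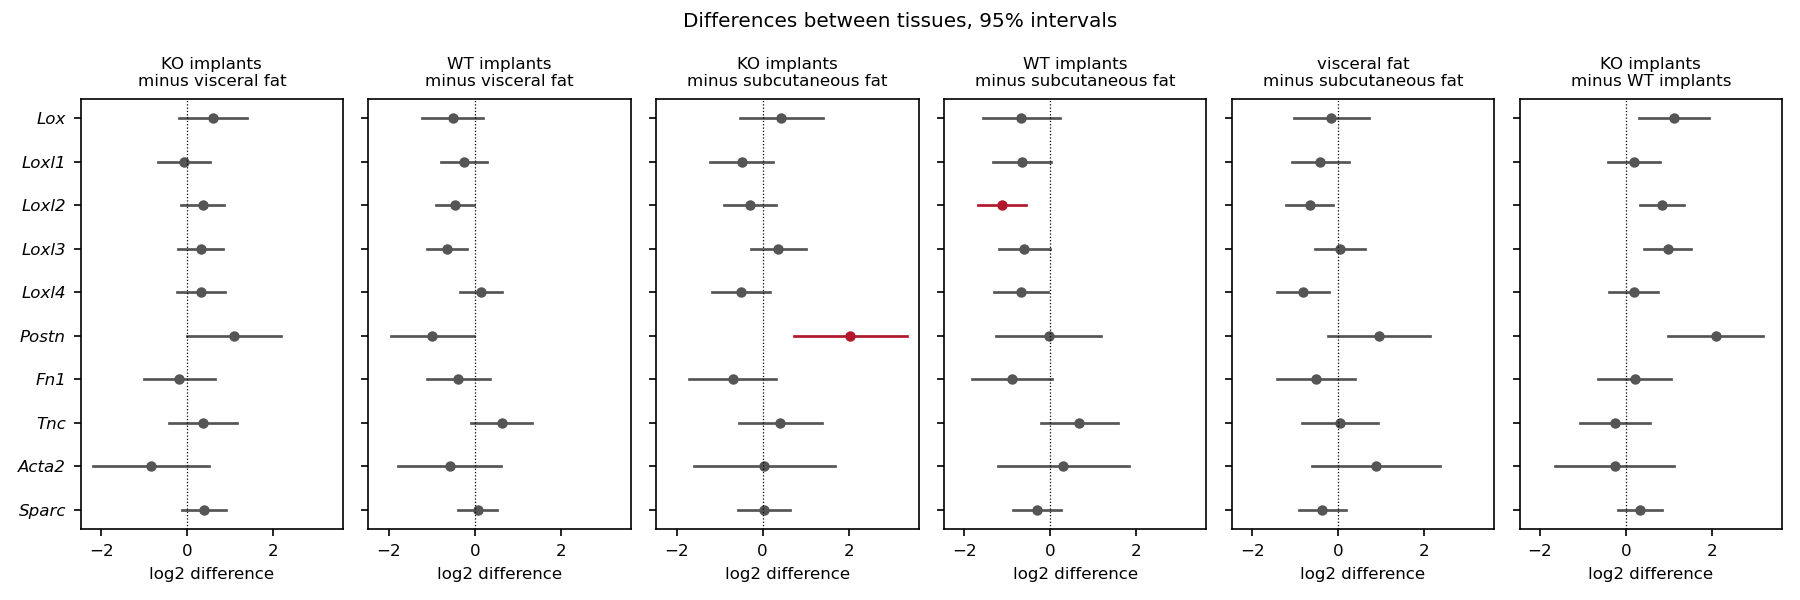
Points give the log2 difference of each gene in 6 comparisons (one panel each, first-named tissue minus the second) and bars the 95% intervals from limma, with red for an adjusted p under 0.05. Red marks Postn in KO implants minus subcutaneous fat and Loxl2 in WT implants minus subcutaneous fat, and the panel of KO minus WT implants is a description without a test.

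The difference between KO and WT implants was also set between the groups described as male and as female, with MKM2 as the only male KO library. The fit assumes that this single library varies like those of the other groups. MKM2 had Xist at 3.77 CPM and Ddx3y at 80.6 CPM. The MWM libraries had Xist at 494 and 466 CPM and Ddx3y at 13.1 and 17.3 CPM. In the male groups, sex-linked RNA and donor genotype therefore cannot be told apart. Limma and edgeR called 0 of the 10 genes, and limma called 0.548% of all genes (0.537% higher, 0.0112% lower). With all 16 libraries it called 216 genes higher and 1 lower, and 0 of the 10. At an unadjusted p under 0.05 limma gave 2 and edgeR 1. For Sparc the log2 difference of KO minus WT was -0.38 in the male groups and 1.04 in the female groups, a difference of -1.42 (SE 0.45, limma adjusted p = 0.185). For Tnc it was 0.63 in the male and -1.15 in the female groups, a difference of 1.77 (SE 0.72, limma adjusted p = 0.280). For Postn it was 1.98 in the male and 2.19 in the female groups, and the 95% interval of the difference ran from -2.43 to 2.01. For Lox it was 0.49 in the male and 1.74 in the female groups, with a difference of -1.24 (SE 0.72, limma adjusted p = 0.426).

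Genes that act around the 10 were taken from lists of collagen processing, other matricellular proteins, elastic fibres and contraction. Of 19 genes for collagen cross-linking and processing, 6 were higher and 1 lower in KO implants than in visceral fat, where 16.4% of all genes were higher and 8.25% lower. Against subcutaneous fat 3 were higher and 2 lower in KO implants, where 13.4% of all genes were higher and 4.9% lower. WT implants gave 1 higher and 1 lower against visceral fat (15.9% and 6.5% of all genes). Against subcutaneous fat they gave 0, beside 8.57% of all genes higher and 1.82% lower (4 at an unadjusted p under 0.05, 0 with edgeR). Visceral fat gave 1 higher and 0 lower against subcutaneous fat, beside 0.565% of all genes higher and 0.632% lower. The median log2 difference of the list was 0.28 for KO implants against visceral fat, beside 0.08 over all genes, and 0.09 for WT implants, beside 0.11.

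Adamts14, a procollagen N-proteinase, had 24.9, 21.5 and 26.7 CPM in MKM2, MKF1 and MKF2 and 7.13 to 11.9 CPM in visceral fat, a log2 difference of 1.44 (SE 0.19, limma adjusted p = 0.00101). Plod1, a lysyl hydroxylase that prepares collagen for cross-linking, had 237 ± 20.7 CPM in KO implants (SD, n = 3) and 135 ± 14.4 CPM in visceral fat (SD, n = 5), a log2 difference of 0.81. Both were also called higher in KO implants than in subcutaneous fat. Pcolce, which enhances procollagen C-proteinase, was called higher in both implant types than in visceral fat, by 1.91 in KO and 1.33 in WT implants. Its relative Pcolce2 was lower in KO implants than in subcutaneous fat, with 30.0 ± 20.8 CPM in KO implants and 122 ± 0.829 CPM in subcutaneous fat. Adamts3, another procollagen N-proteinase, was lower in WT implants than in visceral fat, with 1.29 ± 0.721 CPM in WT implants and 3.76 ± 2.85 CPM in visceral fat, and it was called higher in visceral than in subcutaneous fat (0.341 ± 0.242 CPM) by limma but not by edgeR (adjusted p = 0.0686). The subcutaneous value of Adamts3 rests on few reads, with 0.170 CPM in ESM1 and 0.513 CPM in ESM2. In these libraries 3 reads are worth 0.170 and 0.171 CPM.

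Among 21 tested matricellular genes outside the 10, 7 were higher and 4 lower in KO implants than in visceral fat, and 6 were higher and 3 lower in WT implants, beside 16.4% of all genes higher and 8.25% lower in KO implants and 15.9% higher and 6.5% lower in WT implants. Against subcutaneous fat, each implant type gave 5 higher and 1 lower with limma, beside 13.4% of all genes higher and 4.9% lower in KO implants and 8.57% higher and 1.82% lower in WT implants, and edgeR gave 4 higher and 1 lower in KO implants and 2 higher and 1 lower in WT implants. The median log2 difference was 0.32 for KO implants against visceral fat, beside 0.08 over all genes, and 0.18 for WT implants, beside 0.11. Between the depots limma called 0, beside 1.2% of all genes, with 9 at an unadjusted p under 0.05 and 1 with edgeR. Comp, a cartilage and tendon matrix protein, had 96.0 ± 11.3 CPM in KO implants and 39.6 ± 15.7 CPM in WT implants. It had 3.09 ± 1.94 CPM in visceral fat and 9.07 ± 3.36 CPM in subcutaneous fat. Spp1 (osteopontin), which macrophages make, had 62.2 ± 41.0 CPM in KO implants, 140 ± 88.8 CPM in WT implants, 6.09 ± 8.65 CPM in visceral fat and 8.58 ± 1.71 CPM in subcutaneous fat. Smoc1 went the other way, with 157 ± 13.7 CPM in KO implants, 243 ± 36.6 CPM in WT implants and 591 ± 72.6 CPM in visceral fat. Vtn (vitronectin), which the liver secretes, had 104 ± 102 CPM in KO implants, 174 ± 101 CPM in WT implants and 27.6 ± 3.15 CPM in visceral fat. The liver marker sums were those given for Fn1, and their part was not tested. Spock1, a testican proteoglycan, had 2.15 ± 0.429 CPM in WT implants and 0.426 ± 0.441 CPM in subcutaneous fat, and limma called it higher in WT implants, which edgeR did not (adjusted p = 0.116). In ESM2 Spock1 had 0.114 CPM, below the 0.171 CPM that 3 reads are worth there.

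Of 15 elastic fibre genes, 1 was higher and 3 lower in KO implants than in visceral fat, and 0 were higher and 3 lower in WT implants. Of all genes, 16.4% were higher and 8.25% lower in KO implants, and 15.9% higher and 6.5% lower in WT implants. The median log2 difference was -0.08 in KO implants, beside 0.08 over all genes, and -0.63 in WT implants, beside 0.11. Efemp1 (fibulin-3) had 92.9 ± 21.6 CPM in KO implants, 119 ± 15.3 CPM in WT implants and 279 ± 120 CPM in visceral fat. Ltbp4, which guides elastin assembly, had 398 ± 62.9 CPM in KO implants, 538 ± 135 CPM in WT implants and 1224 ± 454 CPM in visceral fat, and was higher in visceral than in subcutaneous fat (488 ± 85.3 CPM). Emilin2, an elastin interface protein, was lower in both implants than in either depot. Against subcutaneous fat, each implant type gave 1 higher and 2 lower. Of all genes, 13.4% were higher and 4.9% lower there in KO implants, and 8.57% higher and 1.82% lower in WT implants. The higher one was Mfap4, a microfibril-associated protein, with 66.8 ± 17.4 CPM in KO implants, 39.6 ± 23.6 CPM in WT implants and 2.81 ± 1.40 CPM in subcutaneous fat. In WT implants edgeR did not call Mfap4 (adjusted p = 0.0746).

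Of 12 contractile genes, limma called only Actg2, higher in WT implants (79.2 ± 71.6 CPM, SD, n = 4) than in subcutaneous fat (3.07 ± 0.474 CPM, SD, n = 2), with an adjusted p of 0.0499 that edgeR did not share (0.0830). In that comparison limma called 8.57% of all genes higher and 1.82% lower. In KO implants against visceral fat 4 had an unadjusted p under 0.05 and edgeR called 2 lower, where edgeR called 1707 of all 17871 genes lower. The median log2 difference of these 12 from visceral fat, where EVFY2 held the high values given above, was -0.95 in KO and -0.55 in WT implants, beside 0.08 and 0.11 over all genes for KO and WT implants. Against subcutaneous fat it was 0.01 in KO and 0.35 in WT implants, beside 0.12 over all genes for KO and 0.14 for WT implants. In the difference between male and female implants, limma and edgeR called 0 genes of any of the 4 lists, with 3 (cross-linking), 0 (matricellular), 1 (elastic) and 3 (contractile) at an unadjusted p under 0.05. With all 16 libraries, of 35 calls of a named list gene 1 remained (Vtn in WT implants against visceral fat), whereas edgeR without EVFN1 and MKM1 kept 31. Over all genes that fit with 16 libraries called 0 in KO implants against visceral fat, and 21 higher and 28 lower against subcutaneous fat.

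The genes whose log2(CPM + 0.5) followed each of the 10 most closely over the 14 libraries are given as a description, since the libraries share tissues and EVFY2 lies far out. For Lox they were Gcnt2 (r = 0.91), Pmepa1 (0.90) and Kifc3 (0.89), for Loxl1 Olfml2b (0.89), Dbn1 (0.88) and Zfp9 (0.80), and for Loxl2 Timp2 (0.93), Rhoj (0.89) and Dnm1 (0.88). Loxl3 was followed by Tnfsf13os (0.93), Rbpj (0.92) and P3h3 (0.91), and Loxl4 by Lif (0.85), Ism1 (0.84) and Ace (0.78). Postn was followed by Trpc4 (0.93), Pbx3 (0.91) and Fkbp10 (0.91), a chaperone of collagen. The closest for Fn1 were Dbn1 (0.92), Clec3b (0.90) and Lrrn4cl (0.90), for Tnc Mxd3 (0.86), Cyp2c38 (0.86) and Slc25a18 (0.85), and for Sparc Vkorc1l1 (0.92), Gprc5b (0.92) and Phlda3 (0.90). Acta2 was followed by Tagln (0.98), Zfp811 (0.96) and Arhgef25 (0.96), although Tagln shares 62.4% of its exonic bases with an antisense gene and had no more than 11.1 CPM, so its level is uncertain. Among the 10 themselves, Postn with Loxl3 (0.86), Loxl1 with Fn1 (0.84) and Loxl1 with Loxl2 (0.83) were the closest pairs, and without EVFY2 these were 0.81, 0.79 and 0.80.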

How the data were processed

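Sequencing measured RNA in 16 mouse libraries under 8 group codes. The labels' protocols describe depletion of ribosomal RNA by RNase H and random-hexamer cDNA, whereas the molecule is labelled polyA RNA. Tools named in the submitters' processing notes are STAR 2.5.4, Subread 1.6.3 (featureCounts), cutadapt 2.7 and FastQC 0.11.4, on mm10. Strand setting and annotation release were not given in the sources used here. The authors deposited 1 table of CPM values. Every nonzero value (100%) was a whole multiple of 1 read, worth 0.0388 to 0.0608 CPM, so read counts could be recovered for edgeR. ESF, a further labelled sample, was not analysed here.

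Values were tested as log2(CPM + 0.5) with limma 3.58.1 in R 4.3.3 (trend and robust options), keeping genes that reached 1 CPM in 2 or more libraries. The 8 group means of 14 libraries entered 1 model with 6 residual degrees of freedom, and tissues are equally weighted means of their groups. Fold changes on this scale understate the change of low genes. The labels do not say whether the 2 libraries of a code come from different mice, and p-values thus reflect the spread between libraries, possibly technical. Within codes, chi-square statistics of the counts were 22.3 to 214 per degree of freedom, so no pair agreed within sampling noise. Alternatives were all 16 libraries, pseudocounts of 0.1 and 2, no filter, TMM and median-of-ratios scaling, edgeR 4.0.16 on the recovered reads, the replicate number as a block, EVM as the only visceral group, and leaving out each library.

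The genes, lists and tests were chosen with earlier results of these data known. Up to 3 genes of each list and comparison with the smallest adjusted p past 0.05 are named, and for each of the 10 genes the 3 with the highest correlation, predicted gene names aside. Positions and exon lengths are from GENCODE M21 on mm10, which holds 54106 of the 54658 symbols (99.0%).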

Additional observations from a re-analysis of the deposited data

Results flagged for a closer look

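Of 48 sets of 4 to 6 libraries examined, 10 held a library far from the others by Dixon's criterion, where chance gives about 1 in 20. The sets are not independent, since visceral fat was examined with and without EVFN1 and the smooth muscle genes vary together, so the number is not read against that share. In visceral fat EVFY2 was the library that stood apart for Loxl3 (40.3 CPM), Postn (1334 CPM), Acta2 (2991 CPM), Myh11 (4672 CPM) and Cnn1 (677 CPM). For Loxl3, Acta2, Myh11 and Cnn1 it also stood apart with EVFN1 counted among the visceral libraries, while Postn did not, as EVFN1 had 808 CPM. For Sparc the library was EVM1, with 6152 CPM against 3187 to 3943 CPM in the other 4 visceral libraries, but not with EVFN1 (4699 CPM) counted among them.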

How the results depend on the processing

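With EVM as the only visceral group, 3 differences turned sign: Acta2 in KO implants against visceral fat (0.53), Postn in WT implants against visceral fat (0.15) and Postn in visceral against subcutaneous fat (-0.20); this setting also called 1 of the 10 genes, Postn, in KO implants against visceral fat. In WT implants against visceral fat 1 gene, Loxl3, was called with all 16 libraries, median-of-ratios scaling, TMM scaling and edgeR. In KO implants against subcutaneous fat 0 were called with all 16 libraries, without the filter, with edgeR and with the replicate block. Leaving out 1 library at a time gave 0 to 2 called genes in KO implants against visceral fat, 0 to 2 in WT implants against visceral fat, 0 to 1 in KO implants against subcutaneous fat and 0 to 2 in WT implants against subcutaneous fat. It gave 0 throughout for the depots and for male against female implants, which could not be fitted without MKM2. The 4 genes whose KO and WT implants did not overlap became 4 to 5 (Fn1 joined without MKF1), and edgeR, the block and EVM alone give no value for that count. The cause of these changes was not tested. Whether the replicate numbers pair the samples is not known. Over 15 pairs of groups the correlation of deviations was -0.44 to 0.34, above 0.1 in 7, which cannot decide it. Apart from Postn in KO implants against subcutaneous fat, the block changed no call of the 10 genes. TMM and median-of-ratios scaling moved the median of all genes by -0.21 and -0.24 for male against female implants, and median-of-ratios scaling by -0.11 for both implants against subcutaneous fat. Of the other single-gene values, 1378 were counted as unchanged, 150 lost a call and 14 gained one. For tested comparisons unchanged means the same direction and side of the threshold. For KO against WT implants, which were not tested, it means only a shift below the residual SD of the gene, whatever its sign. In that contrast Acta2 went from -0.26 to 0.14 and Loxl4 from 0.18 to -0.02 with all 16 libraries. The number of libraries, at most 2 per group, limits the precision.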

Other observations

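The library labelled MKM1 held the highest values of thrombospondin genes, matricellular proteins that bind collagen and inhibit vessel growth, which were looked at after their values were seen. Thbs1 had 1254 CPM there and 144 to 683 CPM in the 14 libraries used for means, and Thbs2 had 1521 CPM there and 149 to 711 CPM in those libraries. The immediate-early matricellular gene Cyr61 had 535 CPM in MKM1, against 49.3 to 492 CPM. EVFN1 had 163 CPM of Thbs1, 217 CPM of Thbs2 and 70.5 CPM of Cyr61, inside those ranges.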
